A study of Mus musculus with 4 samples.

Results

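Transcripts of 10 glycolysis genes were measured by RNA sequencing in an adipocyte preparation of gWAT, the white fat around the gonads, from male mice fed a standard diet. The genes were taken by symbol from the deposited table of 55487 genes, and all 10 were found. They are Slc2a1, the hexokinase genes Hk1, Hk2 and Hk3, the phosphofructokinase genes Pfkl and Pfkp, the regulator gene Pfkfb3, and Pkm, Ldha and Slc16a3 of the lower pathway and lactate export. Libraries labelled CKO were set against libraries of littermate controls labelled WT, with 2 libraries in each group. The labels do not explain the abbreviation CKO. They name no allele, Cre driver or age, and do not say whether each library came from a separate animal, and the p-values therefore reflect a spread between libraries that may be technical. BLIMP1, the repressor that Prdm1 encodes, is named in the series title. The comparison therefore asks how transcripts of glucose use in the adipocyte preparation of CKO mice differed from those of controls.

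Glycolysis splits glucose into pyruvate in the cytosol, and each committed step is carried out by isoforms from separate genes that differ between cell types. Hexokinases trap glucose as glucose 6-phosphate. HK2 is the insulin-responsive isoform of fat and muscle, HK1 is expressed in most tissues, and HK3 is found mainly in myeloid cells such as macrophages and neutrophils. Adipocytes take up glucose through the insulin-responsive transporter GLUT4 and use much of it for lipid and lactate, whereas activated macrophages are known for high glycolytic flux through GLUT1.

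The start-site windows of Hk2 and Hk3 are shown because the log2 changes of these isoforms lay on opposite sides of 0 and far apart within one enzyme family. Each runs from 250 bases before to 50 after the RefSeq start site on GRCm38.p6, both on the minus strand. The Hk2 window is chr6:82774405-82774704 and the Hk3 window is chr13:55021336-55021635. Capitals mark the hypoxia-factor cores ACGTG and GCGTG and the PU.1-type core GAGGAA, found on either strand (CACGT and TTCCTC are their reverse complements).
Hk2: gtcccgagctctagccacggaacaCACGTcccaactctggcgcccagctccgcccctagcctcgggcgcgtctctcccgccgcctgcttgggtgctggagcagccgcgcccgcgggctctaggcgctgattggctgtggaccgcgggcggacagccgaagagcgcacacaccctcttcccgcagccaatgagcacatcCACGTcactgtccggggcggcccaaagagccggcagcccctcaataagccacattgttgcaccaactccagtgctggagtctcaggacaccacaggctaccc
Hk3: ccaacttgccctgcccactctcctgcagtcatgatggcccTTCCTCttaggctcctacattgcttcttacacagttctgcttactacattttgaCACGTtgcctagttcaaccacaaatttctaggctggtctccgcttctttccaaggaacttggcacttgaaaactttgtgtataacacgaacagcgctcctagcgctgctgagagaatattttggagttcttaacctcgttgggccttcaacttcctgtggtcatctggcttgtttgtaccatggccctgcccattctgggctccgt
The Hk2 window held ACGTG starting 226 and 52 bases before the start site and no GAGGAA. The Hk3 window held ACGTG 156 bases and GAGGAA 210 bases before it. Of 32851 RefSeq windows of the same length, 19.6% held ACGTG, 32.4% held GCGTG and 28.3% held GAGGAA. Either hypoxia-factor core stood in 12 of the 14 windows of the 10 genes, of which 4 have 2 alternative starts, and in 43.8% of all windows. GAGGAA stood in 3 of the 14 windows, of Hk3, Hk1 and Pfkfb3, and so was not particular to Hk3. These are matches of letters and show no binding.

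The deposited values were log2(reads + 1), from which 24152081 to 26742547 reads per library were recovered. Below, scaled reads are reads divided by a size factor for each library, and each log2 change is the mean of CKO less that of WT in log2(scaled reads + 1). WT replicate 2 stood apart: on the leading principal component (77.7% of the variance) it scored -118.2, with the other libraries between -4.18 and 84.4. The macrophage marker list (10 genes, 9 of them lower in CKO) summed to 34125 and 75588 scaled reads in CKO replicates 1 and 2, against 152675 and 435965 in WT replicates 1 and 2. The adipocyte list (11 genes, 10 of them higher in CKO) summed to 1372204 and 873884 scaled reads in CKO, with 769099 and 236839 in WT. All 6 endothelial markers (median log2 change 1.22) and all 5 red blood cell markers (median 2.17) were also higher in both CKO libraries; their part in the members' differences was not tested. The defining adipocyte genes Adipoq and Plin1 were abundant in every library, and so was the macrophage gene Lyz2. In bulk samples, fewer cells of a type and less RNA per cell cannot be told apart. Prdm1 had 152 and 386 reads in CKO and 514 and 1135 in WT, at an adjusted p of 0.459 in limma. The labels name no deleted exon and the count covers the whole gene, so it does not check them.

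No member passed the adjusted threshold, and Hk3 was the gene with the largest difference among them. With limma and Benjamini-Hochberg adjustment over 16871 genes, 0 of the 10 members passed an adjusted p under 0.05, and 0 of all genes tested (0%) passed either; voom weights also gave 0. At an unadjusted p under 0.05, 1 member, Hk3, was lower and 0 were higher, against 7.26% lower and 3.35% higher over all genes tested. Hk3, Pfkp, Pkm, Ldha and Slc16a3 had both CKO libraries below both WT libraries, as did 26.8% of all genes tested. Pfkfb3 had both CKO libraries above both WT libraries, as did 23.9% of all genes. In the other 4 members the groups overlapped. The median log2 change of the members was -0.42, against 0.015 over all genes tested.

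**Figure D1:**
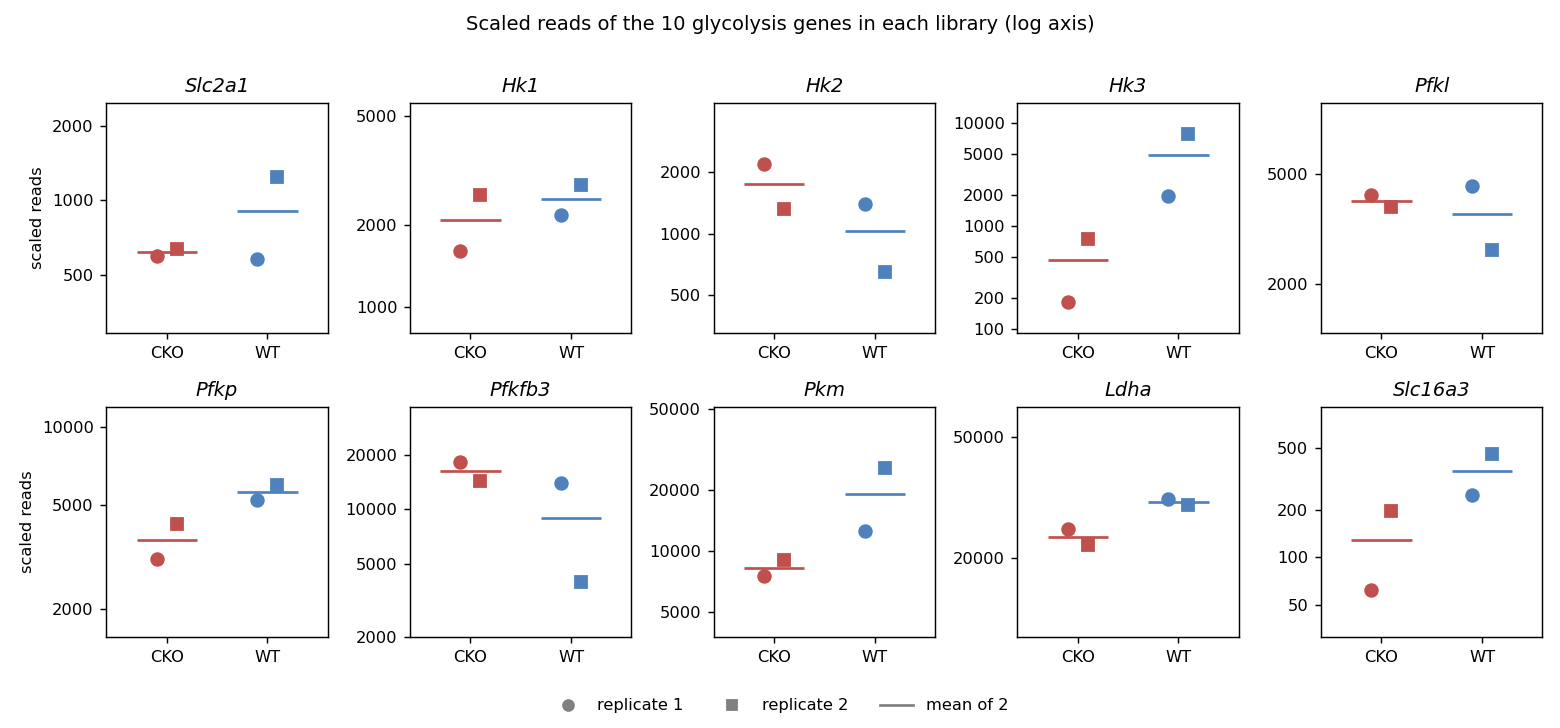
Scaled reads of each of the 10 glycolysis genes on a log axis, with CKO on the left and WT on the right of each panel. Points are libraries and lines are means of 2 libraries. Hk3, Pfkp, Pkm, Ldha and Slc16a3 lie lower in both CKO libraries, Pfkfb3 lies higher in both, and the other 4 overlap.

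Glucose entry was represented by Slc2a1, which encodes the basal glucose transporter GLUT1 (chromosome 4, 119108711 to 119137983, plus strand, GRCm38). It had 596 and 637 scaled reads in CKO replicates 1 and 2, against 580.4 and 1238 in WT replicates 1 and 2. WT replicate 2 alone was high, and WT replicate 1 was the lowest of the 4. The log2 change was -0.46 (SE 0.42, limma adjusted p = 0.629), and without WT replicate 2 it was 0.086, on the other side of 0. Slc2a4, which encodes the insulin-responsive GLUT4, had 6364 and 3101 scaled reads in CKO, against 2812 and 503.6 in WT. The groups did not overlap, with a log2 change of 1.90 (SE 0.88, limma adjusted p = 0.459) that was 0.66 without WT replicate 2. Per kilobase of exon, the Slc2a1 to Slc2a4 ratio was 0.0929 and 0.204 in CKO, against 0.205 and 2.44 in WT. CKO replicate 2 and WT replicate 1 were nearly level in this ratio, and WT replicate 2 was the only library with more Slc2a1 than Slc2a4. Slc2a3, the gene of the high-affinity transporter GLUT3, averaged 66.0 ± 33.2 scaled reads per kilobase in CKO and 28.3 ± 1.89 in WT (SD, n = 2 each).

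Among the hexokinase isoform genes, Hk3 was lower in both CKO libraries, whereas Hk2 and Hk1 overlapped between the 2 groups. Hk3 (chromosome 13, 55005985 to 55021385, minus strand), the start-site window of which is printed above, had 182 and 747 scaled reads in CKO replicates 1 and 2, against 1987 and 7902 in WT replicates 1 and 2. The libraries were spread widely within each group, yet both CKO libraries lay below both WT libraries. The log2 change was -3.42 (SE 0.93, limma unadjusted p = 0.0148, adjusted p = 0.459), which is 0.0934 times the WT level on that scale. Without WT replicate 2 it was -2.42 (unadjusted p 0.0401 in limma, adjusted p 0.849), and without CKO replicate 1 it was -2.41 (unadjusted p 0.0445, adjusted p 1.000).

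Hk2 (chromosome 6, 82725025 to 82774454, minus strand) had 2198 and 1325 scaled reads in CKO, against 1405 and 647 in WT. CKO replicate 1 was high, WT replicate 2 was low, and the other libraries lay close together, so the groups overlapped. The log2 change was 0.84 (SE 0.48, limma adjusted p = 0.489), or 0.28 with WT replicate 2 left out and 0.47 with CKO replicate 1 left out. Hk1 (chromosome 10, 62268855 to 62379908, minus strand) had 1609 and 2563 scaled reads in CKO, against 2174 and 2780 in WT. Its groups overlapped, with a log2 change of -0.28 (SE 0.33, limma adjusted p = 0.705). Hkdc1, a hexokinase-domain gene, had 0 to 3 reads per library and was not tested.

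Within each library, the Hk3 to Hk2 ratio per kilobase of exon was 0.134 and 0.914 in CKO replicates 1 and 2, against 2.29 and 19.8 in WT replicates 1 and 2. Hk2 exceeded Hk3 in both CKO libraries and Hk3 exceeded Hk2 in both WT libraries. On the log2 scale the ratio averaged -1.51 ± 1.96 in CKO and 2.75 ± 2.20 in WT (SD, n = 2 each), a difference of -4.26. The exact two-sided permutation p was 0.333, the smallest that 2 libraries against 2 allow. Leaving out WT replicate 2 gave -2.71, and leaving out CKO replicate 1 gave -2.88. A total of 18 such ratios were computed, and the smallest adjusted value (Benjamini-Hochberg, exact permutation) was 0.545.

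As shares of the summed reads per kilobase of Hk1, Hk2, Hk3 and Hkdc1, Hk3 made up 8.17% and 28.0% in CKO, against 52.4% and 83.2% in WT. Hk2 made up 60.7% and 30.6% in CKO, against 22.8% and 4.20% in WT. Hk1 made up 31.1% and 41.4% in CKO, against 24.7% and 12.6% in WT. The summed level of these 4 genes was 606 and 726 scaled reads per kilobase in CKO, against 1031 and 2580 in WT, where the higher sums came with higher Hk3. With the longest protein-coding transcript as length in place of the union of exons, the mean share of Hk1 was 50.6% in CKO and 28.5% in WT, so the order of Hk1 and Hk2 in CKO depends on the length used. The mean share of Hk3 was then 14.2% in CKO and 60.4% in WT, compared with 18.1% in CKO and 67.8% in WT by the union of exons.

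**Figure D2:**
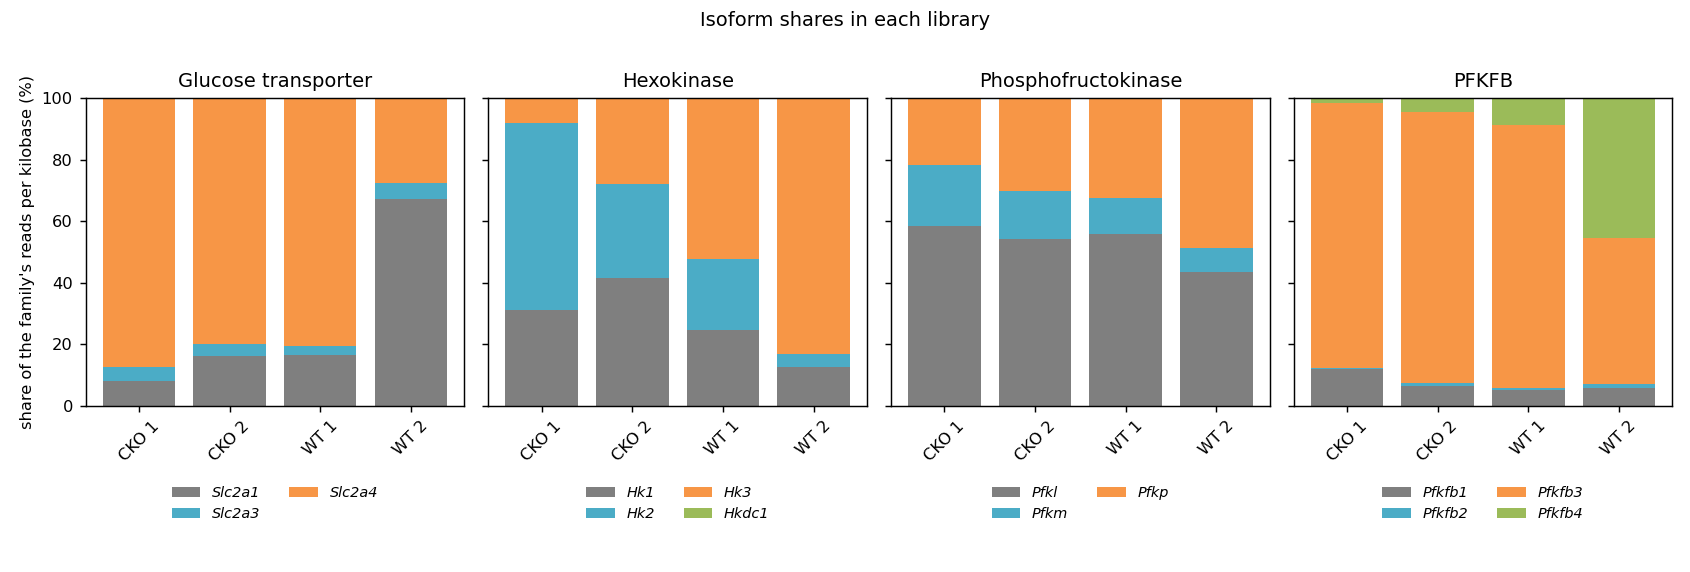
Share of each isoform in its family's reads per kilobase, in percent, for each library, with the CKO libraries left of the WT libraries. Hk3 made up 8.17% and 28.0% of the hexokinase genes shown in CKO and 52.4% and 83.2% in WT, and Pfkfb4 made up 45.4% of its family in WT replicate 2.

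Relative to the macrophage markers, Hk3 was lower in both CKO libraries for 8 of the 10 and overlapped for Adgre1 and Cd68. Per kilobase, Hk3 was 11.6% and 23.4% of the level of Adgre1, the gene of the macrophage antigen F4/80, in CKO replicates 1 and 2, against 20.9% and 20.7% in WT replicates 1 and 2. CKO replicate 1 was low and the groups overlapped (exact permutation p = 1.00). Against Cd68, a lysosomal glycoprotein gene of macrophages, Hk3 was at 3.50% and 4.63% in CKO and at 4.56% and 4.73% in WT. The log2 changes of Adgre1 and Cd68 themselves were -3.08 (SE 0.76) and -3.22 (SE 0.86), beside -3.42 for Hk3, and the other 8 markers differed less. Against Csf1r, the gene of the macrophage growth factor receptor, Hk3 was at 6.02% and 17.2% in CKO and at 21.4% and 27.0% in WT. Against Mrc1, the mannose receptor gene, it was at 19.1% and 81.9% in CKO and at 120.5% and 146% in WT. Mertk, a receptor gene for the uptake of dying cells, had a log2 change of -0.029, and Cd163, a scavenger receptor gene, one of 0.62. Neutrophils also express HK3, and their markers were mixed. S100a8 had 71 and 139 reads in CKO, against 263 and 377 in WT, and Csf3r had 113 and 156 in CKO, against 162 and 395 in WT, both in the library order of Hk3. S100a9 had 51 and 54 reads in CKO, against 13 and 7 in WT, and Camp had 28 and 27 in CKO, against 4 and 1 in WT. Ly6g and Cxcr2 had at most 5 reads in a CKO library and 0 in both WT libraries. Retnlg had 16 and 7 reads in CKO, against 6 and 1 in WT, and Ngp had 19 and 24 in CKO, against 2 and 0 in WT. All 8 neutrophil markers summed to 307 and 370.5 scaled reads in CKO and to 467 and 821 in WT. S100a8 and Csf3r had the most reads of the list in every library, so the sum mainly follows these genes and hides the markers that were higher in CKO. The part of macrophage or neutrophil RNA in the difference of Hk3 was not tested. These ratios were chosen after the values had been seen. Exons of Unc5a on the opposite strand overlap Hk3, and whether counting used strand is not stated in the labels; Unc5a had 503 and 494 reads in CKO and 686 and 288 in WT, an order unlike that of Hk3.

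Relative to the adipocyte markers, Hk2 overlapped between the groups for 8 of the 11, was lower in both CKO libraries for Slc2a4 and Cfd and higher for Lep. Per kilobase it was 0.711% and 0.779% of the level of Adipoq, the adiponectin gene, in CKO replicates 1 and 2, against 0.705% and 1.88% in WT replicates 1 and 2. WT replicate 2 was the highest, and the other 3 were nearly level for Adipoq. Relative to Plin1, which encodes the main coat protein of the adipocyte lipid droplet, Hk2 was at 7.20% and 10.3% in CKO, against 9.31% and 18.3% in WT. Against Lep, the leptin gene, it was at 9.19% and 3.47% in CKO and at 1.32% and 1.37% in WT. The part of adipocyte RNA in the values of Hk2 was not tested.

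The 3 protein-coding genes whose profile over the 4 libraries was nearest to that of Hk3, by the Euclidean distance of log2 values centred on each gene's mean among 13358 candidates, were Glipr1 (distance 0.039), Efcab11 (0.12) and Cd84 (0.12). Those nearest to Hk2 were Fcor (0.031), Bbof1 (0.043) and Scp2 (0.086). With 4 libraries such profiles hold little detail, and several of these genes had few reads in some libraries, with Efcab11 at 2 in CKO replicate 1.

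The phosphofructokinase step, the main control point of the pathway, showed a lower level of the platelet-type isoform gene Pfkp and overlapping levels of the liver-type gene Pfkl. Pfkp (chromosome 13, 6579768 to 6648777, minus strand) had 3116 and 4232 scaled reads in CKO, against 5262 and 5989 in WT. The groups did not overlap, with a log2 change of -0.63 (SE 0.29, limma adjusted p = 0.459) that was -0.54 without WT replicate 2. Exons of Pitrm1 lie opposite Pfkp, with 2000 to 2527 reads per library. Pfkl (chromosome 10, 77986947 to 78010083, minus strand) had 4193 and 3789 scaled reads in CKO, against 4497 and 2663 in WT. Its extremes were both WT libraries, and the log2 change of 0.20 (SE 0.34, limma adjusted p = 0.793) was -0.17 without WT replicate 2. Pfkm, the muscle-type isoform gene, was at 0.90 (SE 0.44, limma adjusted p = 0.462), with both CKO libraries above both WT libraries, and at 0.38 without WT replicate 2.

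The sum of the 3 phosphofructokinase genes per kilobase was 1076 and 1045 in CKO, against 1210 and 915 in WT, so the total overlapped. Pfkp made up 21.6% and 30.2% of that sum in CKO, against 32.5% and 48.8% in WT. Pfkm made up 20.0% and 15.4% in CKO, against 11.9% and 7.57% in WT. The Pfkp to Pfkm ratio differed by -1.53 on the log2 scale (exact permutation p = 0.333, the smallest possible) and by -0.91 without WT replicate 2.

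Pfkfb3 encodes an enzyme that makes fructose 2,6-bisphosphate, the activator of phosphofructokinase (chromosome 2, 11471433 to 11554077, minus strand). It had 18334 and 14347 scaled reads in CKO, against 14014 and 3966 in WT. CKO replicate 2 and WT replicate 1 were close, and WT replicate 2 was far below. The log2 change was 1.12 (SE 0.67, limma adjusted p = 0.502). It was 0.21 without WT replicate 2 and 2.03 without WT replicate 1, where WT replicate 2 was the only WT library left. Pfkfb4, another isoform gene of the same enzyme family, lay the other way, with a log2 change of -2.30 (SE 0.65, limma unadjusted p = 0.0173, adjusted p = 0.459). The Pfkfb4 to Pfkfb3 ratio per kilobase was 0.0164 and 0.0514 in CKO, against 0.101 and 0.957 in WT. Pfkfb3 made up 86.2% and 88.2% of the family in CKO and 85.7% in WT replicate 1, against 47.5% in WT replicate 2. Pfkfb1, the isoform gene known from liver and muscle, was at 1.39 (SE 0.53, limma unadjusted p = 0.0482, adjusted p = 0.459), and Pfkfb2, known from heart, at 0.14 (adjusted p = 0.881).

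Relative to Adipoq, Pfkfb3 per kilobase was 4.68% and 6.66% in CKO, against 5.55% and 9.11% in WT. Relative to Plin1 it was 47.4% and 87.8% in CKO, against 73.3% and 88.8% in WT. The groups overlapped in both ratios (exact permutation p = 0.667 each). Ratios of Pfkfb3 to the other adipocyte markers were not computed. The log2 changes of the 11 adipocyte markers ran from -1.23 (Lep) to 2.80 (Cfd), beside 1.12 for Pfkfb3, so other markers can give other results.

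**Figure D3:**
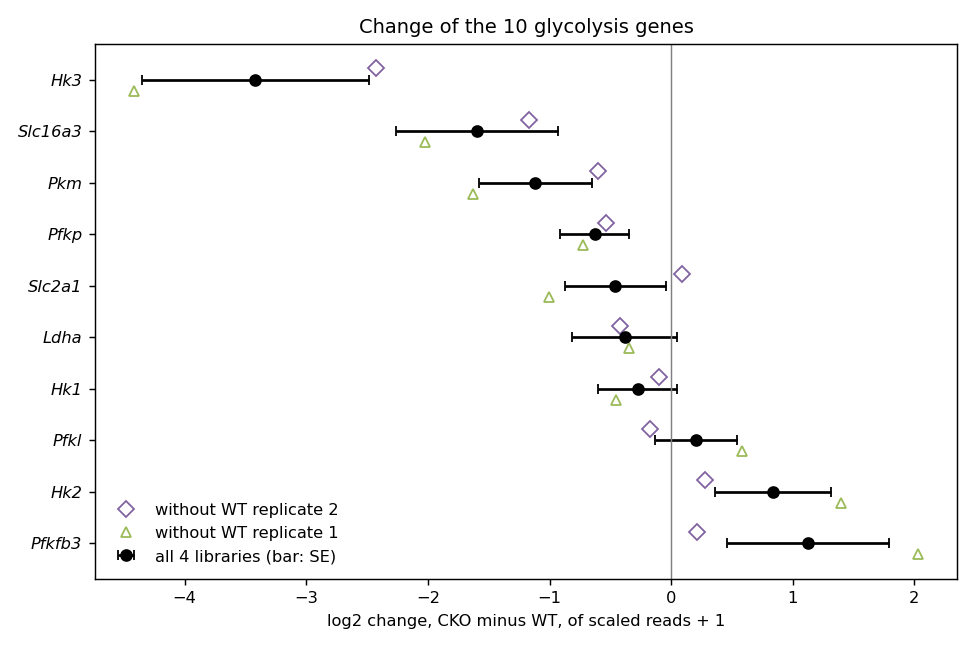
Log2 change, CKO minus WT, of the 10 glycolysis genes in limma, with the SE as a bar, and the values without WT replicate 2 (diamonds) and without WT replicate 1 (triangles). Hk3 had the largest change at -3.42 with 4 libraries, -2.42 without WT replicate 2 and -4.42 without WT replicate 1, and Slc2a1 and Pfkl lay on the other side of 0 without WT replicate 2.

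Pkm, which encodes pyruvate kinase of both the M1 and the M2 splice forms, and the export gene Slc16a3 were lower in CKO in each library. Pkm (chromosome 9, 59656368 to 59679375, plus strand) had 7549 and 9043 scaled reads in CKO, against 12530 and 25620 in WT. The CKO libraries were close together and WT replicate 2 was far above the other 3. The log2 change was -1.12 (SE 0.46, limma adjusted p = 0.459), and it was -0.60 without WT replicate 2. The table gives 1 count for the gene, so the splice forms were not told apart.

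Slc16a3, which encodes the lactate exporter MCT4 (chromosome 11, 120948480 to 120960868, plus strand), had the fewest reads of the members. It had 62.1 and 197 scaled reads in CKO, against 250.2 and 455 in WT. CKO replicate 1 was the lowest by far, and the log2 change was -1.60 (SE 0.67, limma adjusted p = 0.459), or -0.77 without CKO replicate 1 and -1.17 without WT replicate 2. Slc16a1, which encodes the widely expressed lactate carrier MCT1, had a log2 change of -0.086 (SE 0.29), and Bsg, which encodes the partner protein basigin that both carriers need at the membrane, one of 0.12 (SE 0.29). The Slc16a3 to Slc16a1 ratio per kilobase was 0.0403 and 0.120 in CKO, against 0.120 and 0.332 in WT, with CKO replicate 2 and WT replicate 1 level.

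Ldha, the lactate dehydrogenase subunit gene that favours lactate formation (chromosome 7, 46841475 to 46855627, plus strand), was the most abundant member. It had 24954 and 21959 scaled reads in CKO, against 31287 and 29796 in WT. The groups did not overlap, and WT replicate 1 was the highest library. The log2 change was -0.38 (SE 0.43, limma adjusted p = 0.694), and it stayed between -0.48 and -0.29 when each library was left out. The annotation names the pseudogenes Ldha-ps and Ldha-ps2, which can share its reads. Ldhb, the heart-type subunit gene, was at 0.94 (SE 0.57, limma adjusted p = 0.509), and at 0.17 without WT replicate 2. It made up 17.0% and 13.2% of the Ldha and Ldhb sum per kilobase in CKO, against 10.5% and 4.04% in WT.

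Relative to Adgre1, Pkm and Slc16a3 were higher in CKO, unlike Hk3. Pkm per kilobase was 353% and 208% of Adgre1 in CKO, against 96.8% and 49.5% in WT. Slc16a3 was at 2.73% and 4.27% of Adgre1 in CKO, against 1.82% and 0.827% in WT. In both ratios the CKO libraries lay above the WT libraries (exact permutation p = 0.333 each, the smallest possible). Pkm and Slc16a3 thus differed by less between the groups than Adgre1 did, whereas Hk3 differed by about as much. The contrast depends on the marker, and ratios of Pkm and Slc16a3 to the other macrophage markers were not computed. The 8 markers with both CKO libraries below both WT libraries had log2 changes from -3.22 (Cd68) to -1.68 (Mrc1). Those of Mertk (-0.029) and Cd163 (0.62) lay above those of Pkm (-1.12) and Slc16a3 (-1.60).

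Set against each other per kilobase, the members covered a wide range. In CKO the order of mean levels was Ldha (7087 ± 639.8 scaled reads per kilobase), Pfkfb3 (2161 ± 373), Pkm (1659 ± 211), Pfkl (598 ± 42.8), Hk2 (295 ± 103), Pfkp (274 ± 58.9), Hk1 (245 ± 79.1), Slc2a1 (176 ± 8.21), Hk3 (126 ± 108) and Slc16a3 (24.4 ± 18.0; SD, n = 2 each). In WT it was Ldha (9227 ± 319), Pkm (3814 ± 1851), Hk3 (1343 ± 1136), Pfkfb3 (1189 ± 939.7), Pfkl (536 ± 194), Pfkp (419.8 ± 38.3), Hk1 (290 ± 50.2), Slc2a1 (259 ± 133), Hk2 (172 ± 89.8) and Slc16a3 (66.3 ± 27.3; SD, n = 2 each). Hk3 was next to last in CKO and the third in WT. Neighbours in the run from Hk2 to Slc16a3 in CKO, and in the runs from Hk3 to Pfkp and from Hk1 to Hk2 in WT, had means closer than the larger of their SDs. That comparison ignores the pairing of genes within a library. In CKO replicates 1 and 2, Hk3 (49.5 and 203) was above Slc16a3 (11.7 and 37.1) each time. The order of Hk2 (368 and 222) and Pfkp (232 and 316) switched.

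The other glycolytic enzymes lay on both sides of 0. Of 21 genes, 18 were tested, 7 with a positive and 11 with a negative log2 change (median -0.33). None passed the adjusted threshold in limma, and at an unadjusted p under 0.05, 2 were higher (Pfkfb1 and Bpgm) and 3 lower (Pfkfb4, Eno1 and Eno2). The shares over all genes tested were 3.35% higher and 7.26% lower. For 9 of the 18 the CKO libraries were both below the WT libraries and for 5 both above, against 26.8% and 23.9% of all genes tested. Several enzymes of the shared steps had modest negative values. Gpi1 (glucose 6-phosphate isomerase) was at -0.38, Tpi1 (triose phosphate isomerase) at -0.50, Gapdh (glyceraldehyde 3-phosphate dehydrogenase) at -0.37, Pgk1 (phosphoglycerate kinase) at -0.40 and Pgam1 (phosphoglycerate mutase) at -0.46, each with the CKO libraries below the WT libraries. Without WT replicate 2, Gpi1, Gapdh, Pgk1 and Pgam1 were at -0.17, -0.19, -0.20 and -0.29, whereas Tpi1 was at -0.54. Aldoa, the muscle-type aldolase gene, was at -0.057 (SE 0.52) with overlapping groups. Aldoc, an aldolase gene known from brain, had 11 and 30 reads in CKO, against 37 and 130 in WT (limma adjusted p = 0.459).

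The enolase genes differed by isoform. Eno1, the general isoform, had a log2 change of -0.85 (SE 0.29, limma unadjusted p = 0.0335). Eno2, the isoform named for neurons, was at -2.98 (SE 0.78, limma unadjusted p = 0.0125, adjusted p = 0.459). Eno2 had 20 and 54 reads in CKO and 134 and 442 in WT, in the library order of Hk3. Pklr, the pyruvate kinase gene of liver and red blood cells, had at most 4 reads in a library and was not tested, although red blood cell genes such as Hbb-bt were present.

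**Figure D4:**
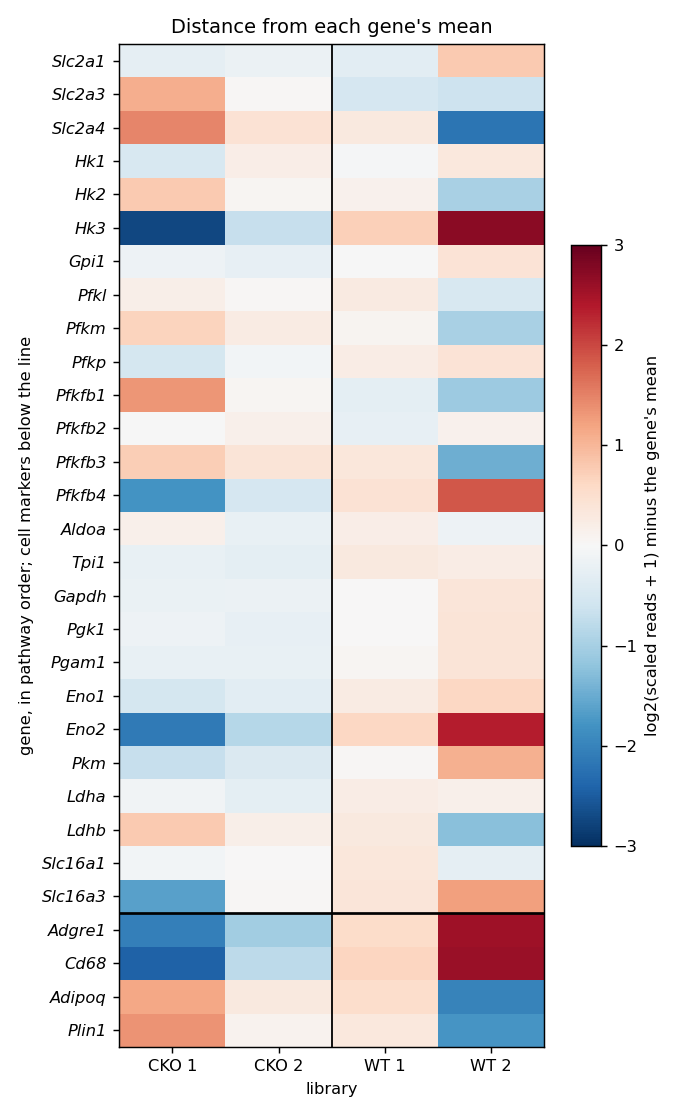
Distance of log2(scaled reads + 1) from each gene's mean over 4 libraries, for genes in pathway order and for 4 cell markers below the line, with the CKO libraries left of the WT libraries. Hk3, Pfkfb4 and Eno2 show the colours of Adgre1 and Cd68, lowest in CKO replicate 1 and highest in WT replicate 2, and Slc2a4, Hk2 and Pfkfb3 show the colours of Adipoq and Plin1, lowest in WT replicate 2.

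Genes of pyruvate entry into mitochondria and of transport were counted in the same way. The list held 14 genes, for the pyruvate carrier, the pyruvate dehydrogenase complex, the regulators of that complex and pyruvate carboxylase. Of these 14 genes, 13 had a positive log2 change. Their median was 0.29, against 0.015 over all genes tested, and none passed the adjusted threshold in limma. At an unadjusted p under 0.05 in limma, 1 was higher (Pdk2, a kinase gene that inhibits the complex) and 0 were lower. The shares over all genes tested were 3.35% higher and 7.26% lower. The carrier genes Mpc1 and Mpc2 were at 0.31 and 0.28, or -0.025 and -0.17 without WT replicate 2, and Pdha1, a catalytic subunit gene of pyruvate dehydrogenase, was at 0.58, or 0.21 without it. The inhibitory kinase genes Pdk1 and Pdk4 were at 0.083 and 0.053, or 0.31 and -0.85 without it. In 4 of the 14 genes the CKO libraries were both above the WT libraries, close to the 23.9% of all genes tested. Of 14 other hexose and lactate transporters, 13 were tested, 9 with a positive and 4 with a negative change (median 0.12), and 0 passed at an unadjusted p under 0.05 in limma. The median of the pyruvate list was 0.19 without WT replicate 2, and that of the other glycolytic enzymes was -0.20.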

How the data were processed

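RNA of adipocytes from 2 CKO and 2 WT libraries was sequenced. Per the submitters' processing notes, FastQC and STAR 2.7.5c were used with GRCm38.p6; neither the counting tool nor its strand setting is stated there. The authors deposited a table of log2 values, named as normalised. In each library every value, turned back from log2 and less 1, was whole within 0.01, so the values are log2(reads + 1) with no scaling between libraries. Reads were recovered by rounding and divided by median-ratio size factors over 19847 genes. Genes that averaged 3 or more over the deposited log2 values (16871 of 55487) were tested with limma 3.58.1 in R 4.3.3 on log2(scaled reads + 1), a pseudocount of 1, with a variance trend and Benjamini-Hochberg adjustment, two-sided. That scale understates the change of low genes. A count model was not run, since the deposited unit is log2. On simulated data for CKO against WT (17327 genes, SD 0.2 on the log2 scale) the fit recovered 74.7% of 2-fold and 100% of 8-fold changes and called 8 unchanged genes. The deposited libraries varied more, with a median SD of 0.23 in CKO and 0.39 in WT, so these rates are higher than the data allow. Lengths are unions of exons from GENCODE release M21, which matched 99.3% of gene IDs; start-site windows are from RefSeq (GRCm38.p6). Ratios between genes were compared by exact permutation over libraries. The members and gene lists were chosen with earlier results of these data known; the genes named outside the members are a set written from pathway roles, the 3 nearest genes of Hk2 and Hk3, and cell markers, and Pdk2, Bpgm, Aldoc, Car9 and Egln3 were chosen after their values were seen. One gene of the enzyme list is not reported here. Alternatives covered filters, scaling, pseudocount, weights, the variance model and leaving out each library.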

Additional observations from a re-analysis of the deposited data

How the results depend on the processing

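No gene passed the adjusted threshold in limma under any filter, scaling, weighting or pseudocount tried, and with each library left out the count was 0 to 1775. With all libraries and the main settings, 566 genes were higher and 1224 lower at an unadjusted p under 0.05. Genes passed the adjusted threshold only without WT replicate 1. The lone WT library of that fit was WT replicate 2, which stood apart, and it was assumed to vary like CKO. For single genes of that fit only effect sizes are therefore given, with Hk3 at -4.42 and Pfkfb3 at 2.03. That fit also had more of all genes tested past an unadjusted p under 0.05 than the fit with all libraries. The highest count of members in the next sentence came from it, and with its lone WT library no conclusion is drawn from that count. The members past an unadjusted p under 0.05 numbered 1 with all libraries, 2 with library weights (Hk3 and Pkm) and 1 to 6 with each library left out. Slc2a1 ranged from -1.01 to 0.086 (without WT replicate 2), Hk1 from -0.61 to 0.060 (without CKO replicate 1) and Pfkl from -0.17 (without WT replicate 2) to 0.58; the cause was not tested. Over all alternatives Hk3 lay between -4.43 and -2.41, Pkm between -1.63 and -0.60, Slc16a3 between -2.42 and -0.77, Pfkp between -0.85 and -0.41, Ldha between -0.48 and -0.19, Hk2 between 0.28 and 1.40 and Pfkfb3 between 0.21 and 2.03. The Hk3 to Hk2 difference lay between -5.82 and -2.71. No paired analysis was possible because the labels carry no replicate numbers that link a CKO to a WT library. With 2 libraries a group, an exact permutation test cannot go below 0.333, and depth limits mainly Slc16a3, with 62 reads in CKO replicate 1. Hexokinase shares by transcript length, ratios to every marker and values without WT replicate 2 beside each member were chosen after seeing the data.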

Other observations

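Genes of the HIF-1 list outside glycolysis, which respond to low oxygen in many cells, did not lie one way. Of 17 genes tested, 10 had a positive and 7 a negative log2 change (median 0.30, and 0.057 without WT replicate 2). None passed the adjusted threshold in limma. At an unadjusted p under 0.05 in limma, 1 was higher (Egln3) and 1 lower (Car9), against 3.35% higher and 7.26% lower over all genes tested. Hif1a, the gene of the oxygen-regulated subunit, had 2974 and 3289 scaled reads in CKO, against 4515 and 3857 in WT. Car9, a carbonic anhydrase gene known as a HIF-1 target, had 8 and 19 reads in CKO, against 74 and 265 in WT. Egln3, a prolyl hydroxylase gene that HIF induces, had 54 and 53 reads in CKO, against 14 and 5 in WT. Vegfa, the gene of the vascular growth factor, was at 0.30 (0.057 without WT replicate 2), and Bnip3, a mitophagy receptor gene, at 1.28 (limma adjusted p = 0.464), or 0.49 without WT replicate 2.

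Neighbouring steps of the lower pathway had unequal levels per kilobase. Tpi1 averaged 3095 ± 99.3 scaled reads per kilobase in CKO and 4380 ± 157 in WT, whereas Gapdh averaged 217 ± 1.97 in CKO and 283 ± 49.7 in WT, Pgk1 114 ± 6.05 in CKO and 152 ± 29.3 in WT, and Pgam1 159.6 ± 0.837 in CKO and 220.5 ± 36.2 in WT (SD, n = 2 each). The annotation names pseudogenes of Gapdh, Pgk1 and Pgam1, which can take reads from these genes. It also names pseudogenes of Aldoa and Ldha, which averaged 12518 and 7087 scaled reads per kilobase in CKO. The part of pseudogenes in the low levels was not tested.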
